A study of Mus musculus with 15 samples.

Results

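Interferon-stimulated genes were read here from hearts of male mice with 1 Lmna allele carrying H222P and of control mice. The gene set held 9 genes: Rsad2, Ifit1, Ifit2, Ifit3, Isg15, Irf7, Usp18, Gbp2 and Oasl2. Members were all probe sets whose annotation names exactly 1 symbol, and that symbol 1 of the 9. This gave 11 of the 45101 probe sets on the arrays, for 8 of the 9 genes: 3 for Rsad2, 2 for Gbp2 and 1 for each of the others. Isg15 was left out, since its probe set is also annotated to Gm9706. All 11 probe sets passed the filter on low signals, which kept 38870 probe sets in all.

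Total RNA of whole hearts was read on Affymetrix arrays of 1 colour, with an array for each mouse. There were 7 arrays from mice labelled Lmna H222P heterozygous and 8 from mice labelled control, all male and, per the labels, at 10 weeks. Lmna encodes lamins A and C of the nuclear lamina, and H222P is a histidine-to-proline substitution first described in people with Emery-Dreifuss muscular dystrophy. The labels give neither the strain nor whether the controls were littermates, and replicates are separate mice by their titles, so the p-values given refer to the scatter of these arrays alone.

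Cells that detect foreign nucleic acid or other danger secrete interferons. Type I interferons bind the receptor chains Ifnar1 and Ifnar2, interferon-gamma those of Ifngr1 and Ifngr2, and Janus kinases then pass the signal to transcription factors. For type I interferons, a complex that holds Irf9 binds the interferon-stimulated response element in the promoters of target genes. In the heart these genes are known to be induced by viral infection and by resident and recruited immune cells, but cardiomyocytes, fibroblasts and endothelial cells can all express them.

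The response element shows as paired GAAA words, and 4 of the members carried such a pair close upstream of the gene start. The search used GAAA, any 2 bases and GAAA again, or on the other strand TTTC, any 2 bases and TTTC, in RefSeq windows of assembly GRCm38.p6 that run from 250 bases before to 50 after a gene's start. Of the 8 members, 7 had a window. A match was present for Rsad2, Ifit1, Ifit3 and Gbp2, and none was in the windows of Ifit2, Irf7 and Oasl2. Among all 32851 windows of this length 3.44% held a match. Stretches of 150 bases with the matches in capitals are shown for these 4 genes, because Ifit1, Ifit3 and Gbp2 gave the widest spread between the heterozygous hearts and Rsad2 the lowest p. They are read on the strand of the gene, from position -170 to position -21 before its start.
Rsad2 (chr12:26456473-26456622, minus strand): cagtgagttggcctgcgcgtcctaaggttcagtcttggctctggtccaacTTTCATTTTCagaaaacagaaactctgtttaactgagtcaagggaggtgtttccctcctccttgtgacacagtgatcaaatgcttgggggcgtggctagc
Ifit1 (chr19:34640719-34640868, plus strand): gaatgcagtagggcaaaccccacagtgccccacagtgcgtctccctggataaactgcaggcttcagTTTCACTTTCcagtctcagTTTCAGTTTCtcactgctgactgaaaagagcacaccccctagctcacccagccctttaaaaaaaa
Ifit3 (chr19:34583359-34583508, plus strand): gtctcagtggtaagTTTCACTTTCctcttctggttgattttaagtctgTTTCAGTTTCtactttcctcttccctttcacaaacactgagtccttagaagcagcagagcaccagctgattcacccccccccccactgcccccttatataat
Gbp2 (chr3:142620493-142620642, plus strand): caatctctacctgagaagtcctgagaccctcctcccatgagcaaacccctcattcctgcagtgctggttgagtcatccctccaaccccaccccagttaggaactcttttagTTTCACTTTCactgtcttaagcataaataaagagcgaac
Ifit1 and Ifit3 each held 2 matches with the same letters, TTTCACTTTC followed by TTTCAGTTTC, and Gbp2 held the first of these words. The Ifit genes are neighbours on chromosome 19 in that assembly. A match is only a run of letters and was not tested for binding.

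Array medians lay between 56.7 and 94.2 signal units, and Spearman correlations between arrays across all probe sets ranged from 0.813 to 0.912. Precision is set by how many arrays there are. The sarcomere gene Myh6 had geometric mean signals of 30670 units in heterozygous and 29290 units in control hearts. Heterozygous array 7 did not stand apart over all probe sets, with a median Spearman correlation of 0.867 with the other arrays, but it did in the genes described here. Heterozygous arrays 2, 3 and 5 and control array 6 had the steepest 3' to 5' ratios of the Actb control probe sets, at 3.23, 2.49, 2.67 and 2.34, while the other 11 arrays lay between 1.23 and 1.89.

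The comparison asked which of these transcripts differ when 1 Lmna allele carries the substitution. None of the 11 member probe sets passed by limma with p-values adjusted (Benjamini-Hochberg, 0.05) over the whole table, against 0.252% of all tested probe sets called (98 of 38870), 0.0900% higher and 0.162% lower. At an unadjusted p under 0.05 there were 2 of 11, both of Rsad2, against 14.6% of all tested probe sets. Groups overlapped in all 11, and in the whole table they did not overlap in 0.468% of tested probe sets. With each gene represented by its tested probe set of highest mean, 3 of the 8 genes were above 0, and the median log2 difference was -0.11, against -0.08 over all 16627 tested genes. In these whole-heart samples fewer cells of a type and less RNA per cell cannot be told apart.

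Rsad2 encodes viperin, an antiviral radical SAM enzyme, and came closest to the threshold. In its probe set 1436058_at the heterozygous arrays had a lowest signal of 428 units, a median of 724.2 and a highest of 1262.1, against 938.2, 1296 and 1540.4 units in the controls. Heterozygous arrays 1 to 6 lay below all 8 controls, and heterozygous array 7 lay among them. Mean log2 signals were 9.45 ± 0.50 (SD, n = 7) in heterozygous and 10.30 ± 0.24 (SD, n = 8) in control hearts. The log2 difference was -0.85 ± 0.21 (SE), or 0.556 times the controls (limma's adjusted p = 0.107). Without heterozygous array 7 it was -0.99 and passed, with limma's adjusted p = 0.0346, where 0.252% of all tested probe sets were called lower. It also passed with a trended and robust prior, at limma's adjusted p = 0.0235. That prior called more probe sets over the whole table, 312 in place of 98 in the main fit.

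The other probe sets of Rsad2 were below 0 as well. 1421009_at gave medians of 145.2 units in heterozygous and 248.3 units in control hearts, and a log2 difference of -0.59 ± 0.27 (SE) with limma's adjusted p = 0.326. There 4 of 7 heterozygous arrays lay below all controls and 1, array 7, above them. 1421008_at gave medians of 139.3 and 209.6 units in heterozygous and control hearts and a difference of -0.44 ± 0.39 (SE), with limma's adjusted p = 0.632. In both, heterozygous array 7 was the highest of all 15 arrays, at 347.6 and 414.8 units, and heterozygous array 2 the lowest, at 77.6 and 55.9 units. The 4 lowest arrays in 1421008_at, heterozygous 2 (55.9 units), 5 (93.8) and 3 (131.4) and control 6 (60 units), were the 4 with the steepest Actb ratios. In 1436058_at the lowest 3 were heterozygous arrays 2, 5 and 3, at 428, 507 and 682.8 units, but control array 6 had 1511.9 units, rank 2 of 15 from the top. In 1421009_at heterozygous array 5 and control array 6 had 188.3 and 196.7 units, ranks 10 and 9 of 15. The part of RNA quality in the Rsad2 signals was not tested. With each array centred on its median, which moved the median difference of all tested probe sets to 0.10 in place of -0.11, the difference of 1436058_at was -0.64 (limma's adjusted p = 0.231).

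**Figure D1:**
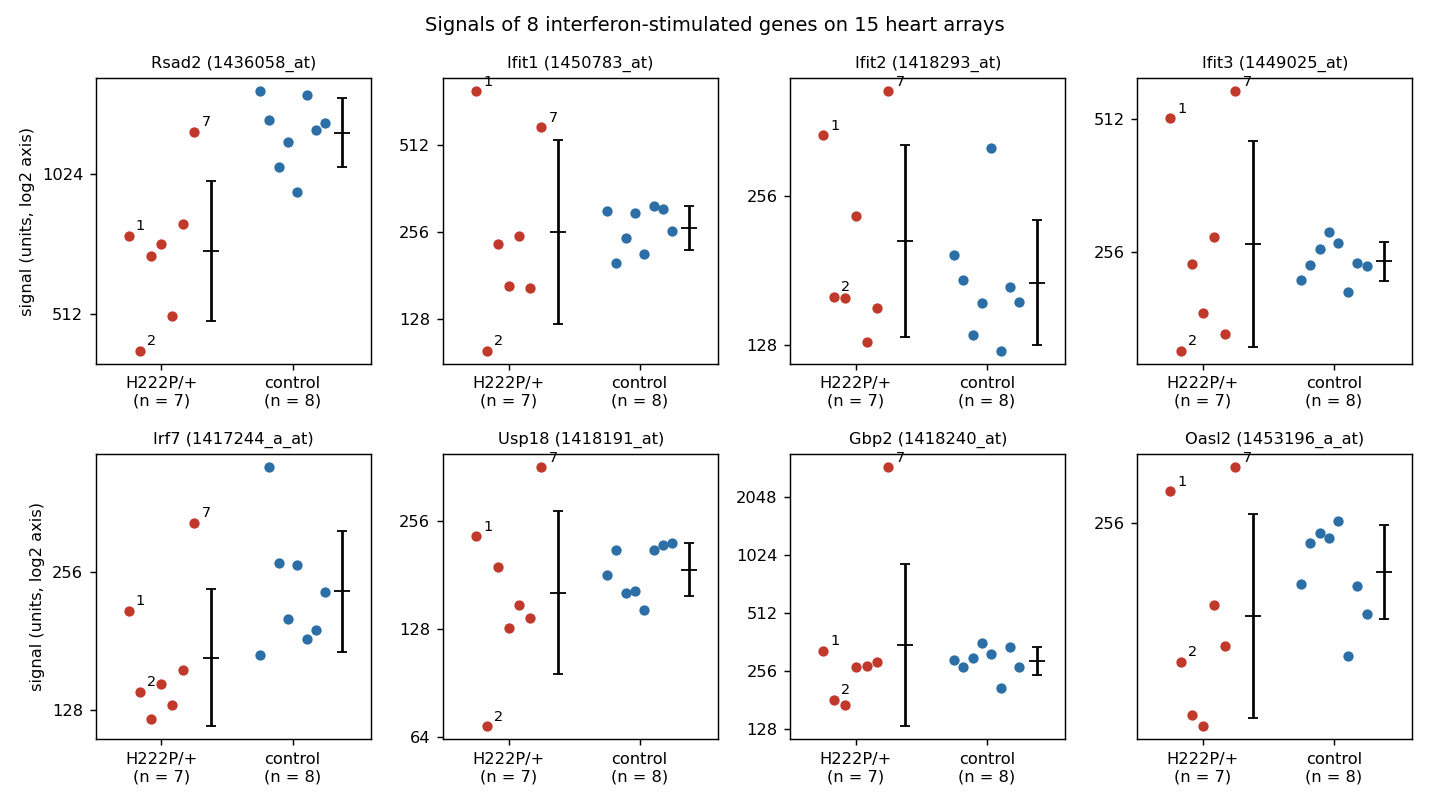
Signals of the representing probe set of each gene on every array, with a log2 vertical axis in signal units. Points are arrays (7 H222P heterozygous left, 8 control right, in order of array number), black bars the geometric mean with 1 SD on the log2 scale, and the numbers mark heterozygous arrays 1, 2 and 7. Gbp2 reached 2931.7 units on heterozygous array 7 while the other 14 arrays lay between 170.2 and 360.8.

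The 3 Ifit genes encode tetratricopeptide proteins that bind RNA or each other, with Ifit1 recognising RNA that lacks the cap methylation of host messengers. Ifit1 had a lowest signal of 99.2 units, a median of 231.9 and a highest of 787.5 in heterozygous hearts, against 200.2, 278.8 and 314.4 units in controls. Heterozygous arrays 1 and 7 lay above every control, at 787.5 and 591 units, and 3 others lay below every control. The log2 difference was -0.05 with a 95% interval from -0.84 to 0.74 (limma's adjusted p = 0.968).

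Ifit3 had a lowest signal of 153.5 units, a median of 240.7 and a highest of 589.5 in heterozygous hearts, against 207.9, 241.3 and 283.8 units in controls. Again arrays 1 and 7, at 512.7 and 589.5 units, lay above all controls and 3 heterozygous arrays lay below them. The SD was 0.77 in heterozygous (n = 7) and 0.15 in control hearts (n = 8) on the log2 scale. The medians nearly coincided, and the difference was 0.13, with a 95% interval from -0.46 to 0.71 (limma's adjusted p = 0.860).

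Ifit2 had a lowest signal of 129.9 units, a median of 160.4 and a highest of 414.4 in heterozygous hearts, against 124.9, 162.3 and 319.6 units in controls. Arrays 7 and 1, at 414.4 and 338.8 units, were again the 2 highest, and control array 5 gave the highest control value. The difference was 0.28, with a 95% interval from -0.30 to 0.86 (limma's adjusted p = 0.673). The Ifit genes thus shared their 2 highest arrays, and none passed between the groups. Without heterozygous array 7 the differences of Ifit1, Ifit3 and Ifit2 were -0.25, -0.06 and 0.11.

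Irf7 encodes the transcription factor that amplifies type I interferon production. Its lowest, median and highest signals were 122.2, 145.9 and 327.6 units in heterozygous hearts and 168.7, 217.2 and 433.5 units in controls. Of the heterozygous arrays, 5 lay below all controls and none above them. The difference was -0.48 ± 0.24 (SE) with limma's adjusted p = 0.379, and -0.64 with limma's adjusted p = 0.182 without heterozygous array 7. 

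Usp18 encodes the protease that removes Isg15 from proteins and dampens signalling at the type I receptor. Its lowest, median and highest signals were 68.4, 148.8 and 361.6 units in heterozygous hearts and 144.1, 196.8 and 222.5 units in controls. Heterozygous arrays 7 and 1, at 361.6 and 232.3 units, stood above all controls, and 3 heterozygous arrays below them. The difference was -0.21 ± 0.28 (SE), with limma's adjusted p = 0.762.

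Oasl2, a member of the oligoadenylate synthetase family, had a lowest signal of 144 units, a median of 180.8 and a highest of 299.7 in heterozygous hearts, against 175.8, 228.6 and 257.4 units in controls. Arrays 7 and 1 were highest here too, at 299.7 and 280.1 units, and 3 heterozygous arrays lay below all controls. The difference was -0.18 ± 0.18 (SE), with limma's adjusted p = 0.678, and it was 0.03 with arrays centred on their medians.

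Gbp2 encodes a guanylate-binding GTPase, induced above all by interferon-gamma, that acts against intracellular pathogens. In 1418240_at the heterozygous arrays ranged from 170.2 to 2931.7 units with a median of 273.4, and the controls from 210.3 to 360.8 units with a median of 296.1. Array 7 alone made the width of that range, since the next highest heterozygous array had 327.9 units. 1435906_x_at, whose suffix marks probes that may also bind other transcripts, showed the same, with 2645.7 units on array 7 and at most 377.6 on the other heterozygous arrays, against 171.9 to 366.3 units in controls. The log2 differences were 0.26 ± 0.47 and 0.45 ± 0.48 (SE), with limma's adjusted p of 0.833 and 0.701. Without array 7 they were -0.25 and -0.05.

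**Figure D2:**
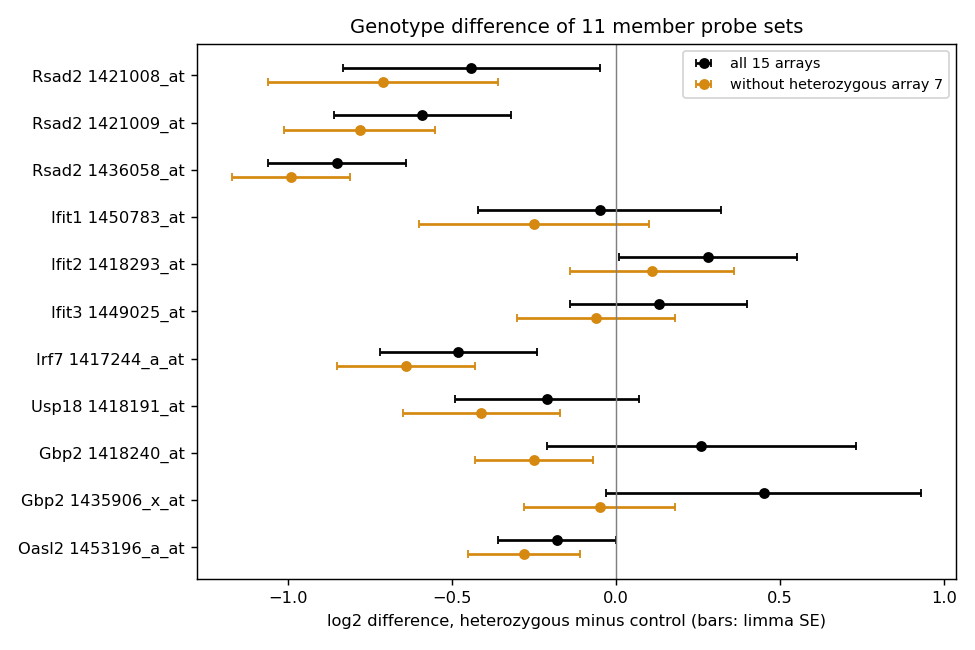
Log2 differences of the 11 member probe sets, heterozygous minus control, with bars of 1 limma SE, from all 15 arrays (black) and without heterozygous array 7 (orange). All 3 probe sets of Rsad2 lie below 0 in both fits, and both of Gbp2 change side from 0.26 and 0.45 to -0.25 and -0.05.

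The heterozygous hearts were more unlike each other than the controls were. The SD of the log2 signal was larger in heterozygous than in control hearts in 11 of 11 member probe sets, from 1.14 to 5.80 times with a median of 2.56. Over all tested probe sets the median of this ratio was 1.18, and 63.7% were above 1. Without heterozygous array 7 the members' median was 1.59, with 9 of 11 above 1, against a median of 1.16 and 23939 of 38870 above 1 over all tested probe sets. These are descriptions, and the difference in spread was not tested.

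Heterozygous array 7 was the highest of the 15 arrays in 8 of 11 member probe sets, against 6.27% of all tested probe sets, and in 5 of 8 member genes, Ifit2, Ifit3, Usp18, Gbp2 and Oasl2, against 6.29% of all tested genes. Heterozygous array 2 was the lowest in 7 of 11 probe sets, against 8.73% of all tested probe sets, and in 4 of 8 genes, Rsad2, Ifit1, Ifit3 and Usp18, against 9.67% of all tested genes. Averaged over the 8 genes, array 7 stood 1.11 above the control mean on the log2 scale and array 1 0.45 above it. Heterozygous arrays 3 to 6 stood between -0.43 and -0.38, array 2 at -0.87, and the controls between -0.14 and 0.09. Array 2 had the steepest Actb ratio of all arrays, and the part of RNA quality in its low signals was not tested.

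Members moved together across arrays. After removal of the group means, Pearson's r was above 0 in 28 of 28 pairs of genes, with a mean of 0.61 and a range from 0.26 to 0.90. The mean Spearman's rho was 0.42. By permutation within groups with 100000 resamples, 9 of 28 pairs passed for r and 4 for rho after Benjamini-Hochberg adjustment over the 28. The members were chosen with earlier results of these data known, so the permutation p-values given here and below are descriptive only. Over the heterozygous arrays alone the mean r was 0.77, from 0.52 to 0.97, and over the controls alone -0.06, from -0.93 to 0.84, with 12 of 28 pairs above 0.

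The 4 pairs that passed both ways were Ifit1 with Usp18, Ifit3 with Gbp2, Ifit3 with Oasl2, and Gbp2 with Oasl2. For Ifit3 and Oasl2, r was 0.85 (permutation p = 0.0041, adjusted 0.021) and rho 0.89 (permutation p = 0.00028, adjusted 0.0064), and r was 0.42 without the 2 arrays farthest from the median of Ifit3, heterozygous 1 and 7. For Ifit1 and Usp18, r was 0.84 (permutation p = 0.0045, adjusted 0.021) and rho 0.76 (permutation p = 0.003, adjusted 0.021), and r was 0.83 without heterozygous arrays 1 and 2, the farthest in Ifit1, and 0.75 without heterozygous arrays 1 and 7. Over all 28 pairs the mean r was 0.30 when each lost the 2 arrays farthest in its first gene, which differ from pair to pair. For Gbp2 and Oasl2, r was 0.71 (permutation p = 0.0015, adjusted 0.021), rho was 0.78 (permutation p = 0.00069, adjusted 0.0064), and r was 0.58 without heterozygous arrays 3 and 7. For Ifit3 and Gbp2, r was 0.73 (permutation p = 0.0074, adjusted 0.03), rho was 0.79 (permutation p = 0.00049, adjusted 0.0064), and r was 0.29 without heterozygous arrays 1 and 7. 

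The co-variation rested to a large degree on 2 arrays. The mean r was 0.37 without heterozygous array 7 and 0.07 without heterozygous arrays 1 and 7, with 15 of 28 pairs above 0. The last 2 arrays were singled out after their values were seen. Rsad2, in 1436058_at, had the lowest r with the mean of the other members, 0.62, and Ifit3 the highest, 0.89.

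**Figure D3:**
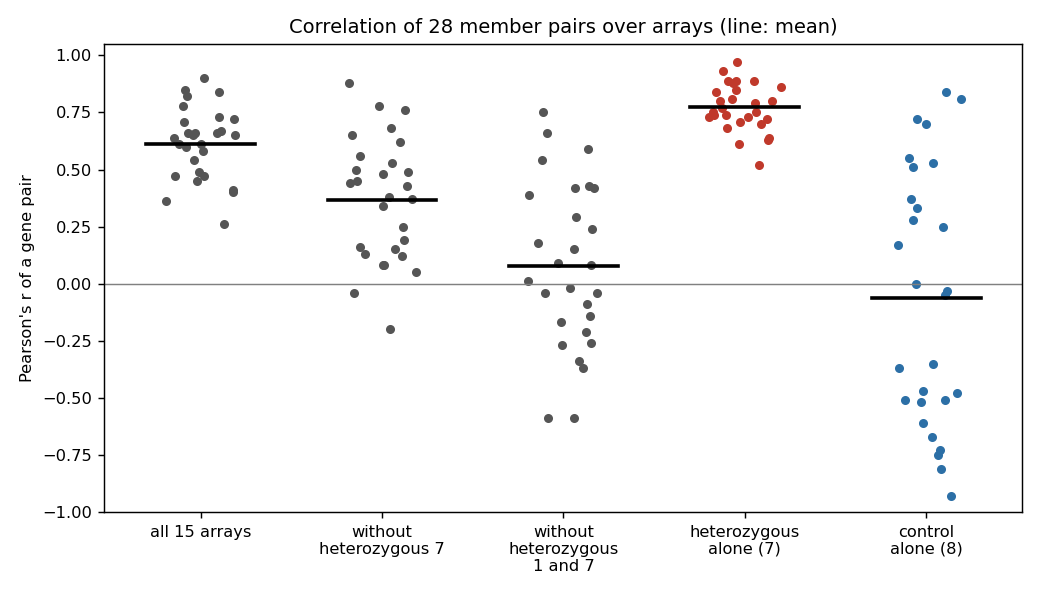
Pearson's r of the 28 pairs of member genes, after removal of group means, over 5 sets of arrays. Each point is a pair and each line the mean: 0.61 over all 15 arrays, 0.37 without heterozygous array 7, near 0 without heterozygous arrays 1 and 7, 0.77 over heterozygous arrays and -0.06 over controls.

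Genes most like the members were ranked by r with their mean standardised deviation over the 15 arrays. Of the 10 highest among 16619 other genes, 8 belonged to the interferon lists: Parp9 (r = 0.94), Tap1 (0.90), Psmb9 (0.90), Psmb10 (0.89), Lgals3bp (0.89), Rtp4 (0.88), Zbp1 (0.88) and Iigp1 (0.88). Tap1 encodes a peptide transporter, and Psmb9 and Psmb10 immunoproteasome subunits, all of the class I antigen pathway. Iigp1 is an immunity-related GTPase, and Zbp1 senses nucleic acids. The other 2 were AW112010 (0.90) and BC023105 (0.87). Without heterozygous array 7, r was 0.85 for Parp9, 0.86 for Lgals3bp and 0.83 for AW112010. For the others of the 10 it ran from 0.62 (Iigp1) to 0.74 (Tap1 and Psmb9). Of all other genes 0.614% had an r over 0.7, and their median was 0.00.

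These genes showed where the arrays diverged. Parp9, an ADP-ribosyltransferase family member, had 908.7 units on heterozygous array 7, 511.7 on array 1 and 217.9 to 321.8 on the other 5 heterozygous arrays, against 251.8 to 412.2 units in controls. Iigp1 had 26890.6 units on array 7, 2507.7 on array 1 and 919.9 to 1883.1 on the other 5, against 992.1 to 1841.3 units in controls. None of the 10 passed between the groups, with limma's adjusted p from 0.355 to 0.990.

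**Figure D4:**
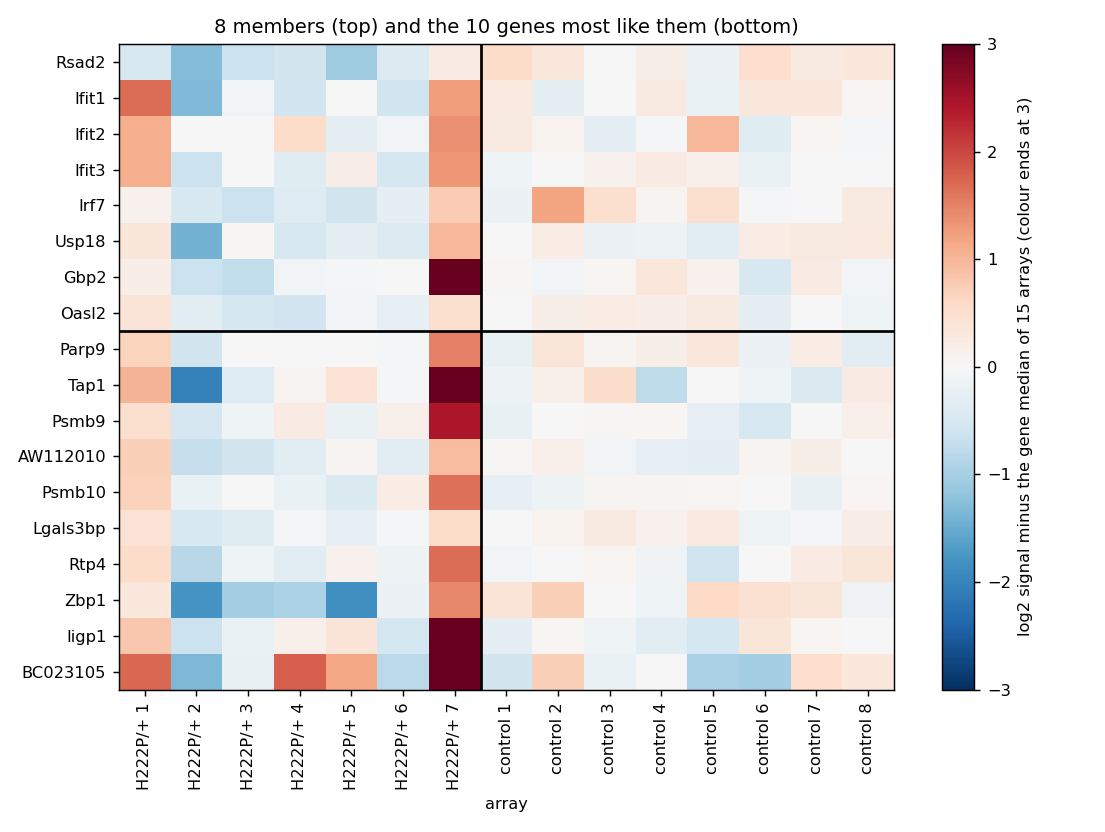
Log2 signal minus the median of the 15 arrays for the 8 members (above the line) and the 10 genes most like them (below it), with heterozygous arrays left of the vertical line and controls right of it. Red is higher and blue lower, and the colour ends at 3. The column of heterozygous array 7 is red in all 18 rows, and that of array 2 is blue or white.

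The other genes of the pathway were counted in 7 lists, of which 117 genes were tested. One, Ifi202b, rose in heterozygous hearts and 0 fell by limma's adjusted p, against 0.289% of all tested genes called. At an unadjusted p under 0.05 there were 14 of 117, against 15.2% of all tested genes. The median log2 difference of the 117 was 0.11, and 70 were above 0.

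Of 6 tested ligand genes 0 passed, and all had weak signals. The type I ligands Ifna1 and Ifnb1 had geometric means of 41.5 and 53.7 units in heterozygous hearts and of 67.6 and 92.7 units in controls, with limma's adjusted p of 0.381 and 0.408. Ifng, which encodes interferon-gamma, had 50.9 units on heterozygous array 7 and 3.6 to 57.1 units on the other 14 arrays. Of 9 receptor and transducer genes 0 passed. The kinase gene Jak2 stood at a ratio of 1.31 (limma's adjusted p = 0.356) and Stat2 at 0.683 (limma's adjusted p = 0.559). Irf9, the DNA-binding part of the type I transcription complex, had 657.8 units on heterozygous array 7 and at most 357.7 on the other 14. 

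Of 15 sensors and adaptors 0 passed. The endosomal DNA receptor gene Tlr9 stood at a ratio of 0.513 and Zbp1 at 0.552, with limma's adjusted p of 0.237 and 0.355, and the other probe set of Zbp1 lay at a log2 difference of 0.28. Of 40 other type I targets 0 passed. Oas1b, a truncated synthetase in many laboratory strains, came closest, with mean log2 signals of 3.64 ± 0.55 (SD, n = 7) in heterozygous and 4.87 ± 0.38 (SD, n = 8) in control hearts and limma's adjusted p = 0.0516, in a range of weak signals, and it passed without heterozygous array 2 or array 7. Oas3 had geometric means of 24.4 units in heterozygous and 48.7 units in control hearts (limma's adjusted p = 0.178). Of 10 negative regulators 0 passed. The phosphatase genes Ptpn6 and Ptpn11 stood at ratios of 0.522 and 1.39, with limma's adjusted p of 0.0780 and 0.265, and the other probe set of Ptpn6 lay at a log2 difference of 0.69. The 3 probe sets of Ptpn11 ran from -0.38 to 0.47.

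Of 7 tested genes of the HIN-200 family, which code for cytosolic and nuclear DNA-binding proteins, 1 rose. Ifi202b had a lowest signal of 25.3 units, a median of 142.3 and a highest of 189.3 in heterozygous hearts, against 2.7, 5.85 and 31.1 units in controls, with limma's adjusted p = 0.0279. Only the lowest heterozygous array reached into the control range, and the control signals were weak. Its r with the member mean was -0.08, and on heterozygous array 7, where the members were highest, it had 62.8 units. The log2 filter at 6 left the Ifi202b probe set untested, since too few arrays exceeded that level. The call was lost with a floor at 6 and with the replicate block. It was also lost in 5 of 15 fits that each left out 1 array. These were the fits without control arrays 3, 4 and 7 and without heterozygous arrays 1 and 4.

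Interferon-gamma targets and antigen presentation genes were the list in which heterozygous array 7 stood farthest out. None of 30 passed between the groups, with a median log2 difference of 0.31 and 24 of 30 above 0. Tap2 and H2-D1 had the smallest p, at ratios of 1.49 and 1.35 and limma's adjusted p of 0.299 and 0.303. H2-D1 has close paralogs, and its 8 tested probe sets ran from -0.94 to 0.96 in log2 difference. Array 7 was the highest of the 15 arrays in 25 of the 30 genes, or 83.3%, against 6.29% of all tested genes, and in 15 of 40 type I targets, 4 of 15 sensors, 3 of 10 negative regulators, 2 of 9 receptors and transducers, 0 of 6 ligands and 0 of 7 HIN-200 genes. The median of the 30 stood 1.85 (log2) above the median of the other 14 arrays, against 0.41 for the type I targets and 0.00 for all tested genes.

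On that array 10 genes exceeded every other array by at least 4-fold, counting genes whose highest signal elsewhere was at least 100 units. They were BC023105, Igtp, Irgm2, Cd274, Iigp1, Irgm1, Gbp2, Cxcl9, Tap1 and Gbp7. Of these, 7 are in the interferon lists and Gbp2 is a member. Igtp, Irgm1, Irgm2 and Iigp1 are immunity-related GTPases that defend against intracellular parasites and bacteria. Igtp had 14325 units on array 7 and 346.9 to 482.5 on the other 14, at least 29.7 times as much. Irgm2 had 7068.8 units on array 7 and 194 to 374.6 on the other 14. The chemokine gene Cxcl9, which draws activated T cells, had 1570.7 units there and 33.3 to 213.2 on the other 14. Cd274, which encodes the checkpoint ligand PD-L1, had 2185.2 units there and 19 to 143.7 on the other 14. By the same count the other 14 arrays had 0 to 4 such genes each, and 0 of them in the interferon lists or among the members. These genes were chosen after their values were seen.

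**Figure D5:**
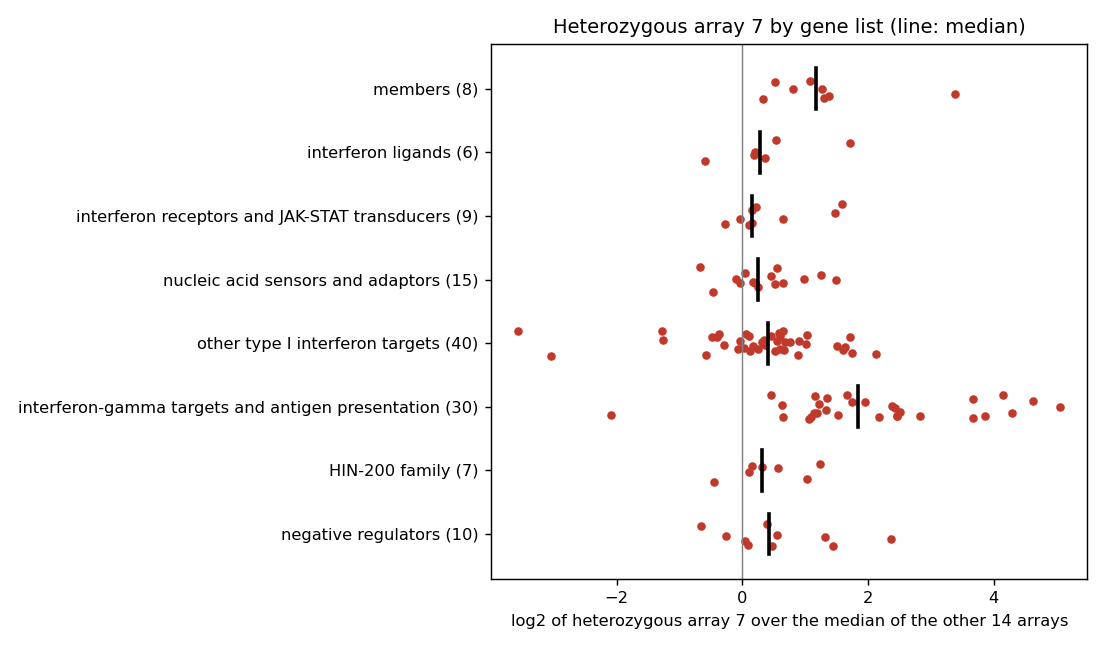
Heterozygous array 7 against the median of the other 14 arrays, as log2 of the ratio, for each tested gene of 8 lists, with black lines at list medians and the number of genes after each name. The interferon-gamma list lies farthest right with a median near 1.85, next the members near 1.17, and the medians of the other lists lie between 0.16 and 0.43.

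Heterozygous arrays 1 and 7 were both above all controls in the class II genes H2-Aa, H2-Ab1 and H2-Eb1 and in Cd74, the class II invariant chain. H2-Aa and Cd74 had 4844.7 and 3980.6 units on array 1 and 4620.7 and 3038.5 on array 7, against at most 1989.3 and 1660.4 units in controls. H2-Ab1 and H2-Eb1 had 815.8 and 1657.3 units on array 1 and 1071.8 and 1819.1 on array 7, against at most 690.1 and 1059 units in controls. In H2-Aa and Cd74 this was not particular to arrays 1 and 7, since the heterozygous medians, 2139.7 and 1856.1 units, also lay above all controls. The heterozygous medians of H2-Ab1 and H2-Eb1, 511.3 and 873.4 units, lay within the control ranges. In Igtp, at 482.5 units, array 1 lay close to the controls, which had 367 to 467.7 units. For Ifitm3, a membrane protein that blocks viral entry, array 1 had 9109.6 units, array 7 6707.4 and the controls 3455.8 to 4467.7 units. The heterozygous median of Ifitm3, 4577.4 units, was above all controls as well.

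Marker sums of other cell types were set beside these arrays. The summed signal of 14 macrophage and monocyte markers was 17244 units on array 1 and 10075 on array 7. Heterozygous arrays ran from 6999.8 to 17244 units and controls from 8197.6 to 10843. Array 1 thus had the highest sum and lay above all controls, while array 7 lay within their range. On array 1 Cd68, Adgre1, C1qa, C1qb, C1qc, Mrc1 and Lyz2 were above all controls, and the other markers lay within the control ranges. The 10 lymphocyte markers summed to 358.5 units on array 1 and 613.1 on array 7, with heterozygous arrays from 306.9 to 651.7 and controls from 422.6 to 698.9 units. The 5 dendritic cell markers summed to 446.1 and 377 units on these arrays, with heterozygous arrays from 311.8 to 504.4 and controls from 316.4 to 693.5 units. The 6 neutrophil markers summed to 647.7 and 709 units, with heterozygous arrays from 190.8 to 4285.1 and controls from 259.1 to 551 units, so both sums lay above all controls, and the highest sum was on array 2, where the members were low. Of these markers only S100a8 and S100a9 were above all controls on arrays 1 and 7. Mmp8 was below all controls on both, at 53.4 and 51.6 units, and Ngp on array 1, at 39.8 units. Csf3r and Ltf on both arrays, and Ngp on array 7, lay within the control ranges. No marker was listed at 0, but the lymphocyte and dendritic cell markers were weak, with at most 296.4 units for any of them on any array. The 7 endothelial markers summed to 6922.9 units on array 1 and 7630.8 on array 7, with heterozygous arrays from 5023.3 to 8839 and controls from 4956 to 6475.5 units, again with both sums above all controls. Of these markers only Emcn was above all controls on array 1, and only Cdh5, Kdr and Tek on array 7. The others lay within the control ranges on each array. The 7 fibroblast markers summed to 32346 and 26590 units, with heterozygous arrays from 20508 to 32346 and controls from 15208 to 19626 units, so all heterozygous sums lay above the controls. Dcn weighed most in this sum, with 9164.6 to 17666.6 units in heterozygous and 4553.9 to 8131.2 units in control hearts. Its 2 probe sets ran from -0.47 to 0.88 in log2 difference. On array 2 Col1a1, Col1a2, Col3a1 and Lum lay below all controls, at 329.6, 943.8, 1718.3 and 525.4 units. The part of these cell types in the signals of arrays 1 and 7 was not tested. Atrial and blood markers also differed between the groups: 3 of 6 atrial markers rose and 2 of 7 erythroid and platelet markers fell. Array 7 had the lowest atrial sum of the heterozygous arrays, 6506 units, within the control range from 5718.3 to 10474 units. Most of it was Nppa, at 4493.7 units. Sln, Myl7 and Myl4, the 3 that rose, had 245.3, 754.5 and 883.8 units on array 7, against control medians of 6, 52.05 and 227.25 units. All 3 values lay within the control ranges, which were 2.8 to 406.7, 24.7 to 1212.9 and 182.1 to 1399.8 units. The 2 probe sets of Sln ran from -0.94 to 6.37 in log2 difference, and the 2 of Myl4 from -0.07 to 2.83. The blood sum of array 7 was 2032.2 units, with heterozygous arrays from 1790.2 to 3417.4, all below the controls at 3597.1 to 4418.3 units. The 8 cardiomyocyte markers summed to 248660 units on array 7, with heterozygous arrays from 110950 to 292290 and controls from 143440 to 426200 units.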

How the data were processed

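Per the labels' protocols, heart RNA was purified by RNeasy, biotin-labelled and put on arrays in the usual Affymetrix way. The authors deposited an intensity for each probe set on each array, and the submitters' processing notes name GCRMA. The numbers run from 0.1 to 80754.9 on a linear scale, and each array has a 2% trimmed mean of 250.0, so how they were summarised is unsure. No batch could be tested from the labels. No pair of arrays shared more than 0.29% of values.

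The log2 of each signal was taken without a pseudocount. After removal of 64 control probe sets, probe sets over a log2 signal of 4 on at least 7 of 15 arrays were tested (38870, for 16627 genes). Genes came from the platform annotation: 34958 probe sets had 1 symbol, 932 several and 9211 none. The group test was limma's (version 3.58.1, R 4.3.3; linear model with empirical Bayes, two-sided, Benjamini-Hochberg, threshold 0.05). On simulated arrays with these means and SDs the test called 4% of changes of log2 0.5, 36% of log2 1, 70% of log2 2 and 92% of log2 4 in this comparison of 38870 probe sets, with 8 false calls. The simulated noise was independent and had the same SD in both groups. The members' SDs were larger in heterozygous hearts, so these rates need not hold for them. Correlations used deviations from group means and two-sided permutation tests with scipy 1.17.1 under Python 3.11.15, and figures matplotlib 3.10.9.

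Members and lists were chosen with earlier results of these data known. Named were all members, the 10 genes most like them, and, of each other list, genes that passed or else the 2 with the smallest p. Genes of heterozygous arrays 1 and 7, Ifng, Irf9 and the marker genes Myh6 and Actb were named beyond that rule. Alternatives covered the filter, the scaling, a floor, the prior, array weights, a replicate block, averaging the probe sets of a gene, and dropping each array in turn. The replicate numbers were not taken to pair the mice in the main fit. Of 7 same-numbered pairs 0 had deviations that correlated by over 0.1, which cannot exclude a shared litter or day.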

Additional observations from a re-analysis of the deposited data

Results flagged for a closer look

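Dixon's test was applied to log2 signals in 22 groups of arrays, 2 for each of the 11 member probe sets. It found an array far from the others in 4 groups, where chance would give about 1 in 20 if groups were independent. They were not, since members moved together and some genes have several probe sets. Heterozygous array 7 was far above the other heterozygous arrays in both probe sets of Gbp2, at 2931.7 units where the next had 327.9 and at 2645.7 units where the next had 377.6. Control array 5 was above the other controls in Ifit2, at 319.6 units where the next had 194.9. There the gap over the range, 0.53, only just passed the critical value of 0.526. Control array 6 was far below the other controls in 1421008_at of Rsad2, at 60 units where the next had 162.9.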

How the results depend on the processing

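Of the 11 member probe sets 0 passed on all arrays, and 1, 1436058_at of Rsad2, passed with a trended and robust prior and without heterozygous array 7, for a range of 0 to 1 when each array was left out. Over 24 alternative settings the log2 difference of Rsad2 ran from -0.99 to -0.63 and its adjusted p from 0.0235 to 0.249, while Gbp2, Ifit1, Ifit3 and Oasl2 had the other sign in 1, 4, 2 and 1 of them. The members' median difference ran from -0.28 to 0.09 when arrays were left out. The calls over all probe sets, 98 in all, became 192 with the log2 filter at 6, 65 with median centring (51 higher and 14 lower, in place of 35 and 63), 65 with quantile normalization (37 higher and 28 lower), 312 with the trended and robust prior, 287 with a floor at a log2 of 6, and 17 to 150 without 1 array. With the replicate block 1 probe set passed over the whole table and 0 of the members or of the 117 pathway genes, and 1 of 7 heterozygous arrays correlated best with the control of its own number. Pathway genes passing numbered 1 (Ifi202b), 2 with the trended prior (also Ptpn6), with array weights and with gene means over probe sets (both also Oas1b), and 0 to 2 without 1 array. With the filter or the floor at 6 the 1 was Ptpn6. Ifi202b was not tested under that filter, and it lost its call with the floor. The mean correlation of member pairs, 0.61, was 0.42 with Spearman's rho, 0.77 over heterozygous and -0.06 over control arrays alone, 0.37 to 0.66 without 1 array, and 0.07 without heterozygous arrays 1 and 7, the alternative chosen after seeing the data. The causes of these shifts were not tested. Weak signals, as for Oas1b and the controls of Ifi202b, limit what the arrays can show.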

Other observations

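By the count of genes at least 4-fold above every other array, heterozygous array 2 had 4, Cdo1, Lcn2, Serpina3n and Cdkn1a, and heterozygous array 1 had 2, Vgll2 and Lgals3. Of the 6 neutrophil markers, S100a8, S100a9 and Ngp were highest on heterozygous array 2, at 2253.3, 1500.9 and 365.4 units, against at most 101, 62.3 and 234.5 units in controls. Csf3r, Ltf and Mmp8 had 41.2, 57.9 and 66.4 units on that array, within their control ranges.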
